A study of Mus musculus with 4 samples.

Results

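The cytosolic ribosomal protein genes were followed through 4 polyadenylated RNA libraries of the mouse R1 embryonic stem cell (ESC) line. Members were all table entries with a symbol of the form Rpl or Rps plus a number, together with *Rplp0*, *Rplp1*, *Rplp2* and *Rpsa*, leaving out S6 kinases, *Rps19bp1* and symbols marked as pseudogenes. This gave 87 genes of the 24419 with a symbol of their own. Of these, 77 are core genes, 31 of the small and 46 of the large ribosomal subunit, and 10 are paralogues or ribosomal-protein-like genes. The groups were epiblast-like cells (EpiLCs) collected 72 h after induction, ESCs, ESCs treated for 48 h with 10 µM EED226, and ESCs treated for 48 h with DMSO. Each group was 1 library of 1 culture, so no difference below has a replicate check and no test between conditions was possible. All 4 cultures came from the same line and carried no allele that the labels name. EpiLCs had been kept without LIF and then with FGF2 and a JAK inhibitor. By then they were in another base medium, with knockout serum replacement in place of fetal bovine serum. EpiLC over ESC therefore compares media as well as cell states. The treated cells were in ESC medium with LIF. By the methods, the ESC culture also received PD0325901 and CHIR99021, which its label does not list, and DMSO over ESC therefore compares media as well as vehicle. Feeder fibroblasts supported the stock cultures and were removed by settling before induction.

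A ribosome holds 1 copy of nearly every core protein, and cells make these proteins in matched amounts. Their mRNAs are among the most abundant of dividing cells. Most begin with a cytosine and a run of pyrimidines, the terminal oligopyrimidine (TOP) tract, through which mTOR signalling and Larp1 control their translation. The mRNA levels given here do not measure how strongly these mRNAs were translated. EpiLCs model the step from naive to primed pluripotency, and EED226 binds EED and inhibits the histone methyltransferase complex PRC2.

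The starts of a few members are given to show this tract and the genes that lack it at the annotated start. RefSeq (GRCm38.p6) windows were matched by symbol for 66 of 87 members and for 57 of 77 core genes. A cytosine at the annotated start followed by at least 4 pyrimidines was present in 13 of these 57 core genes (22.8%), against 2.97% of 26968 other genes. Annotated starts can lie some bases from the start used in these cells, so a missing tract says only that the letters are not at that position. Each window below runs from 5 bases before the start through the first 25 bases of the gene, with the tract in capitals. The first 6 have tracts of 8 or more bases, the next pair had the highest and one of the lowest core ratios of EpiLC over ESC, and the last pair are the paralogues with the lowest such ratios.
Rpl15 (chr14:18270962-18270991, minus strand): gccttCTTCCTTTCCTCTggcggcagccat
Rpl35 (chr2:39005107-39005136, minus strand): ctttcCTCTTTCTCTCgaaccaggctgctt
Rps10 (chr17:27635220-27635249, minus strand): cgcccCTTCCTTTCCagcctccgcctcgga
Rps6 (chr4:86857343-86857372, minus strand): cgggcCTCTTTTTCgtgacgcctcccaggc
Rpl28 (chr7:4792960-4792989, plus strand): tgtctCTCTTTCCgtctccggccgccatag
Rpl35a (chr16:33056477-33056506, plus strand): ccttcCTCTTTCCgccatcttggcgcctgt
Rpl4 (chr9:64173382-64173411, plus strand): tgtgggagcagccgggtagagaggagcgtg
Rpl37a (chr1:72711255-72711284, plus strand): cggtctaaaaccgcgcatgcgcattgcgtc
Rpl10l (chr12:66284377-66284406, minus strand): attttgcggctggcggtgggcacgcacggc
Rpl39l (chr16:10170223-10170252, plus strand): tttccggatttccggtggtcgccattcttt

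In the 300-base promoter windows (250 bases before to 50 after the start), the ETS core CCGGAAG on either strand was present in 24 of the 57 core genes (42.1%), against 9.86% of other genes. The YY1-like word AAGATGGC was in 5 (8.77%, against 3.18%), and TATAAA was in 6 (10.5%, against 15.7%). The ETS core ends as the YY1-like word begins, so the 2 can overlap, and a match is not evidence of binding.

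The libraries held 34440049 reads on genes for EpiLCs, 47622555 for ESCs, 46789586 for EED226 and 38863802 for DMSO. Levels are in TPM, reads per base of gene length scaled to the same total in each library, and 0.1 TPM was added before log2 ratios. Ranges after a ratio are exact 95% intervals of how its reads divided between the libraries. They cover counting error only and say nothing of the spread between cultures. A gene was counted as higher or lower past the smaller fold limit, a log2 ratio of 0.32 in either direction. Markers of naive pluripotency summed to 315 TPM in EpiLCs and 2625 TPM in ESCs, and to 1516 TPM with EED226 and 1451 TPM with DMSO (8 genes, none under 1 TPM in any library). The 5 primed markers summed to 666 TPM in EpiLCs and 199 TPM in ESCs, and to 527 TPM with EED226 and 651 TPM with DMSO. Most of each sum was *Dnmt3b*, with 446 TPM in EpiLCs, 134 TPM in ESCs, 366 TPM with EED226 and 472 TPM with DMSO. *Fgf5* had 75.5 TPM in EpiLCs, 0.170 TPM in ESCs, 10.4 TPM with EED226 and 9.91 TPM with DMSO. *Fgf5* and *Pou3f1* were higher in EpiLCs than with DMSO, while *Dnmt3b*, *Otx2* and *Lef1* were lower. The 9 feeder fibroblast markers summed to 10.4 TPM in EpiLCs and 33.0 TPM in ESCs, and to 58.5 TPM with EED226 and 56.3 TPM with DMSO, with 4 or 5 of the 9 under 1 TPM in each library. The 5 primitive endoderm markers summed to 1.22 to 3.25 TPM. The part of these other cells in the values below was not tested.

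The members held 22.2% of all TPM in EpiLCs and 20.8% in ESCs, and 18.2% with EED226 and 18.9% with DMSO. Because the genes are short, their share of reads was smaller, at 7.52% in EpiLCs and 7.69% in ESCs, and 6.09% with EED226 and 6.50% with DMSO. The share of TPM was thus higher in EpiLCs than in ESCs while the share of reads was lower. Of the 100 genes with the highest TPM, members made up 61 in EpiLCs, 59 in ESCs, 58 with EED226 and 58 with DMSO.

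**Figure D1:**
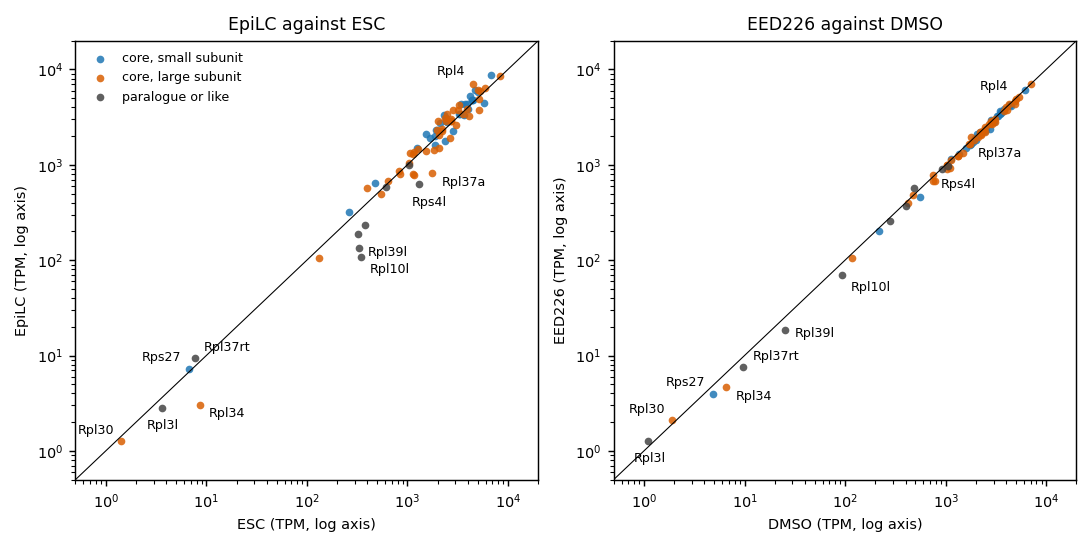
TPM of each member in EpiLCs against ESCs (left) and in EED226 against DMSO (right), both axes logarithmic, with the line of equal values. Blue points are core small subunit genes, orange points core large subunit genes and grey points paralogue or like genes, and the 2 members without at least 0.5 TPM in the libraries plotted (*Rpl26* and *Rps27rt*) are not drawn. In the right panel nearly all points lie on the line, while in the left panel *Rpl37a*, *Rps4l*, *Rpl39l* and *Rpl10l* lie well below it.

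The core genes were not listed at equal levels. Their median was 2792 TPM in EpiLCs and 2410 TPM in ESCs, and 2194 TPM with EED226 and 2261 TPM with DMSO. The 10th and 90th percentiles were 616 and 5453 TPM in EpiLCs and 519 and 5071 TPM in ESCs. The 4 core genes with the highest mean level were *Rplp1*, *Rps12*, *Rpl8* and *Rpl4*. *Rplp1*, an acidic protein of the stalk that recruits translation factors, had 8570 TPM in EpiLCs and 8339 TPM in ESCs, and 7120 TPM with EED226 and 7035 TPM with DMSO. *Rps12*, a small subunit protein, had 8710 TPM in EpiLCs and 6840 TPM in ESCs, and 6019 TPM with EED226 and 6096 TPM with DMSO. *Rpl8*, a protein near the peptidyl transferase centre, had 6440 TPM in EpiLCs and 5909 TPM in ESCs, and 5123 TPM with EED226 and 5341 TPM with DMSO. The order of core genes was much the same in each pair of libraries. Across the 73 core genes whose mean reached 10 TPM, log2 levels in EpiLCs and ESCs had a Pearson r of 0.96 and a Spearman rho of 0.95, and those in EED226 and DMSO an r and rho of 1.00 and 0.99, where the points share gene length and sequence.

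At the other end, 4 core genes had under 10 TPM in every library. *Rpl26*, a protein at the exit tunnel, had 0 reads in EpiLCs and 1 in ESCs, and 1 read with EED226 and 0 with DMSO. *Rpl30* had 12 reads in EpiLCs and 21 in ESCs, and 27 with EED226 and 21 with DMSO. *Rps27* had 64 reads in EpiLCs and 91 in ESCs, and 47 with EED226 and 49 with DMSO. *Rpl34* had 32 reads in EpiLCs and 140 in ESCs, and 66 with EED226 and 80 with DMSO. All 4 encode core ribosomal proteins, while the other core genes had 1136 to 152055 reads in EpiLCs. Core genes have many processed pseudogenes, and the sources used here do not give how the authors' counting treated reads that map to several places. Of the 100-base windows of GENCODE transcripts, a median of 41.9% per core gene also occurred in a transcript of another gene, against 2.30% for the comparison genes described below. The share was 98.4% for *Rps27*, 53.5% for *Rpl30*, 36.8% for *Rpl26* and 22.5% for *Rpl34*, yet it was 91.6% for *Rpl10*, 91.1% for *Rpl5* and 88.9% for *Rps12*, which had at least 23046 reads in EpiLCs. The share also counts genes that overlap at the same place, such as *Fam69a* for *Rpl5*. Across the 73 core genes, the share of repeated windows and log2 mean TPM had a Spearman rho of -0.18. Whether reads that map to several places made the 4 genes low was not tested. The low listed values of these 4 genes rest on few reads, which are given wherever one of them is named with a ratio. Some members share exonic bases with other annotated genes, so their reads may not be fully their own: 66.2% of *Rpl35* lies opposite *Arpc5l* and *Wdr38*, 24.3% of *Rpl5* opposite *Fam69a*, 47.0% of *Rpl24* shares its strand with *Gm28037*, and 24.5% of *Rpl36al* with *Gm49383*. *Rps15a* had 24980 reads in EpiLCs and 31511 in ESCs but only 319 TPM in EpiLCs and 261 TPM in ESCs, because the table gives it a length of 5134 bases, against a median of 703 bases for core genes.

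EpiLC over ESC asks how the family stood after exit from the naive state. On the deposited TPM scale, the core genes were on average slightly higher in EpiLCs, with a median log2 ratio of 0.11 (quartiles -0.09 and 0.27), but the sign turned to -0.12 after centring on the median gene and to -0.24 with TMM scaling, and it was 0.29 after removal of the trend with gene length. Their summed TPM was 218950 in EpiLCs and 203580 in ESCs. Of the 85 members that reached 1 TPM in a library compared, 17 were higher in EpiLCs past the smaller limit (20.0%) and 19 were lower (22.4%), against 50.3% and 26.4% of the 13535 genes tested. At the 2-fold limit, no member was higher and 5 were lower, against 29.2% and 11.6% of all genes. All 17 higher members were core genes, while the lower ones were 13 core genes and 6 paralogues. The split of higher against lower members depended on the scale, with 1 higher and 25 lower after centring, 0 higher and 36 lower with TMM, and 36 higher and 10 lower with the length trend removed.

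The difference between the core genes and other genes of like length and level does not change when all genes are rescaled by 1 factor. Between the 10th and 90th percentile of the core genes' length (449 to 1405 bases) and mean level (522 to 4789 TPM) lay 78 genes that are no ribosomal proteins. They stood at the low end of this window, with a median mean level of 661 TPM and 13 at 1000 TPM or more, against 2448 TPM and 63 of the 77 core genes, so the levels were matched only in part. Their median log2 ratio of EpiLC over ESC was -0.48 (quartiles -0.84 and -0.23), so that the core genes' median lay 0.60 above it. The mean level was taken over all libraries, most of them of ESCs. Genes high in ESCs could therefore enter the window more readily than genes high in EpiLCs. The part of this choice in the difference was not tested. Of these 78 genes, 7 were higher in EpiLCs and 52 lower past the same limit. Of the 76 core genes tested, 72 lay above the comparison genes' median and 63 above their upper quartile. With the length trend removed, the difference in medians was 0.61. The comparison genes' median was -0.79 over the 13 at 1000 TPM or more, -0.34 with the length window opened to the full range of the core genes, and -0.09 with the level window so opened. It turned to 0.22, above the core median, with both windows opened, which takes in 10995 genes tested. Other short-gene complexes were also lower in EpiLCs, with medians of -0.43 for 77 mitochondrial ribosomal protein genes and -0.49 for 38 proteasome subunit genes. The quartiles of the core genes were 0.37 apart, against 0.60 for the comparison genes and 1.56 for all genes tested.

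**Figure D2:**
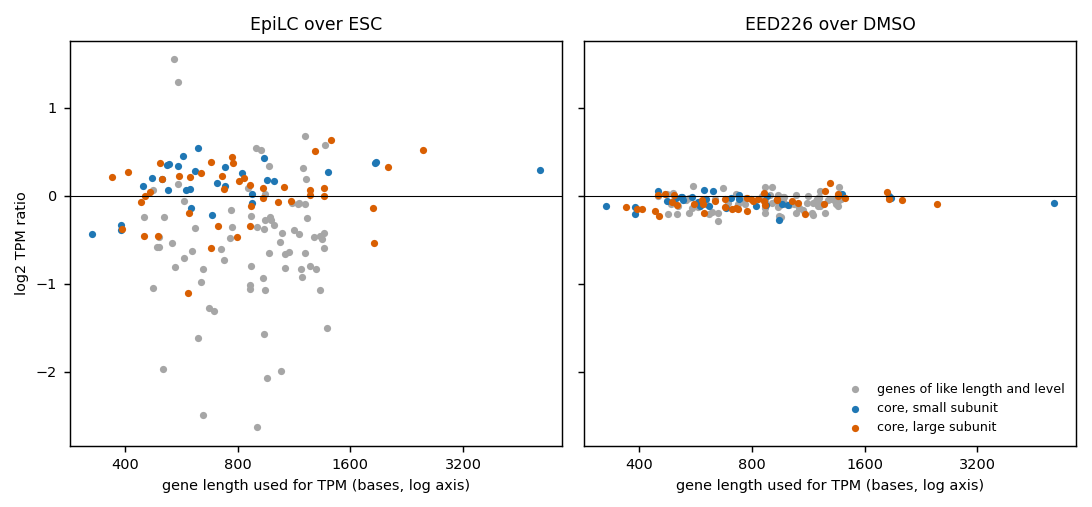
Log2 TPM ratio against the gene length used for TPM (logarithmic axis), for EpiLC over ESC (left) and EED226 over DMSO (right). Blue and orange points are core small and large subunit genes whose mean reached 10 TPM, grey points the 78 other genes of like length and level. On the left the grey points lie mostly below 0, with a median of -0.48, and the core genes above them, and on the right both groups lie together just under 0.

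The small subunit genes had a higher median log2 ratio of EpiLC over ESC than the large subunit genes, 0.18 against 0.06. Of 31 small subunit genes, 9 were higher in EpiLCs and 3 lower past the smaller limit, and of 45 large subunit genes tested, 8 were higher and 10 lower. Of all genes tested, 50.3% were higher and 26.4% lower, and the lower share of the large subunit genes (22.2%) was near that of all genes. Genes are not replicates, and the 0.12 between these medians was smaller than the distance between the quartiles of either subunit. Of the 9 core genes with lengths under 450 bases, 6 were below 0, with a median of -0.34, against a median of 0.12 for the 67 longer ones tested. Across the same 73 core genes, the log2 ratio had a Spearman rho of 0.20 with log2 length, 0.11 with the share of repeated windows and 0.09 with log2 mean TPM. The 13 core genes with a pyrimidine tract at the RefSeq start had a median of 0.21, and the 43 tested with a RefSeq start but no such tract had a median of 0.08. The 4 core genes on the X chromosome (*Rpl10*, *Rpl36a*, *Rpl39* and *Rps4x*) were all below 0, between -0.47 and -0.09. Below 0 were also 25 of the 76 core genes tested, these 4 included, and 5046 of the 13535 genes tested. *Rpl39* is also 1 of the 9 short genes. These 4 genes were also all below 0 in EED226 over DMSO and in DMSO over ESC, as were 61 of 76 core genes in each.

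*Rpl4*, whose protein lines the exit tunnel, had the highest core ratio of EpiLC over ESC. It had 7006 TPM in EpiLCs and 4500 TPM in ESCs, a ratio of 1.56 (1.55 to 1.57), and 4950 TPM with EED226 and 5021 TPM with DMSO. The EpiLC library stood above the other 3. *Rps19*, mutated in human Diamond-Blackfan anaemia, had 3333 TPM in EpiLCs and 2294 TPM in ESCs, and 2121 TPM with EED226 and 2043 TPM with DMSO. *Rpl22*, a large subunit protein that mouse cells can do without, had 572 TPM in EpiLCs and 398 TPM in ESCs, and 399 TPM with EED226 and 426 TPM with DMSO. *Rps10*, another gene of human Diamond-Blackfan anaemia and one with a long pyrimidine start, had 2085 TPM in EpiLCs and 1519 TPM in ESCs, and 1286 TPM with EED226 and 1346 TPM with DMSO. For each of these 4 genes EpiLCs held the highest of the 4 values. *Rpl4* lies on chr9:64173375-64178666 of GRCm38, with 5 annotated snoRNA genes inside it, and core genes with and without such host function had medians of 0.18 (30 genes) and 0.10 (46 genes).

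*Rpl37a*, a zinc-binding large subunit protein, was the core gene furthest from the others on the low side among those with over 1000 reads per library. It had 821 TPM in EpiLCs and 1770 TPM in ESCs, a ratio of 0.464 (0.452 to 0.476), and 1643 TPM with EED226 and 1697 TPM with DMSO. The other 3 libraries lay close together and the EpiLC value far below them. It lies on chr1:72711290-72713813, and 21.4% of its windows were repeated elsewhere. *Rpl34* had a still lower ratio of 0.352, but on 32 reads in EpiLCs and 140 in ESCs (0.232 to 0.520).

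*Rpl24*, whose loss of function in mice gives the Belly spot and tail phenotype, had 774 TPM in EpiLCs and 1166 TPM in ESCs, and 970 TPM with EED226 and 1058 TPM with DMSO. *Rpl21* had 793 TPM in EpiLCs and 1149 TPM in ESCs, and 1007 TPM with EED226 and 1031 TPM with DMSO. *Rpl10*, an X-linked gene whose protein joins the large subunit late in its assembly, had 1899 TPM in EpiLCs and 2630 TPM in ESCs, and 2342 TPM with EED226 and 2401 TPM with DMSO. In each of these 3 genes EpiLCs held the lowest of the 4 values.

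**Figure D3:**
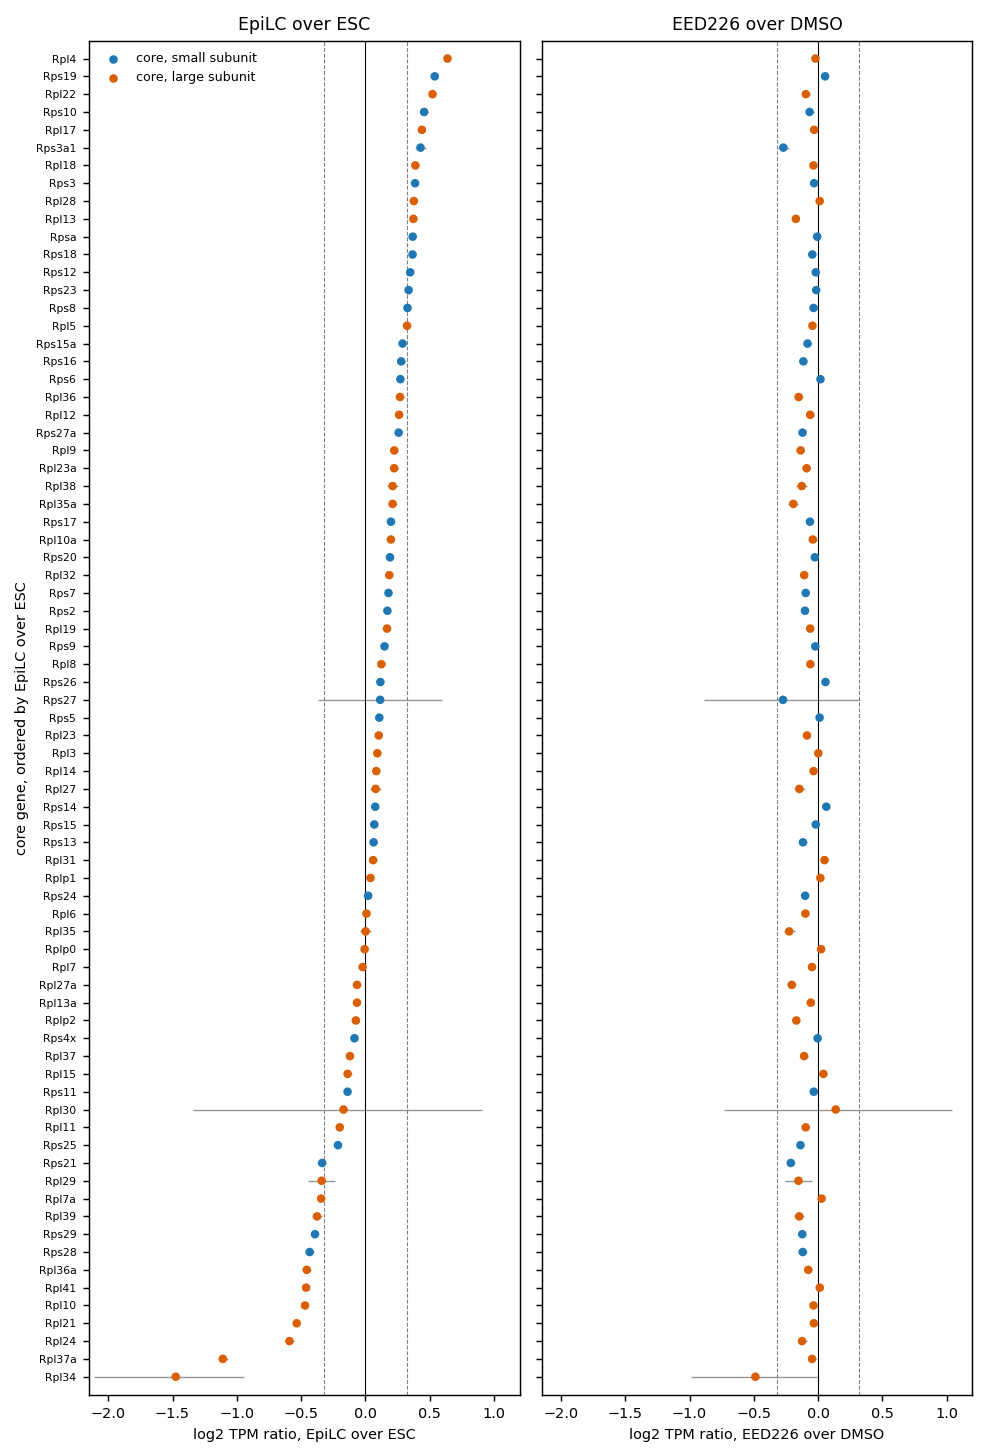
Log2 TPM ratio of core genes that reached a mean of 1 TPM, for EpiLC over ESC (left) and EED226 over DMSO (right), ordered by the left panel from the highest ratio at the top. Points are coloured by subunit, grey bars are 95% counting intervals (often shorter than the point) and dashed lines mark the smaller fold limit. *Rpl4* at 0.64 and *Rpl37a* at -1.11 bound the well-covered genes on the left, and on the right only *Rpl34*, with few reads, lies past a dashed line.

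Members with functions beyond the ribosome did not share a direction in EpiLC over ESC, and nor did those of the stalk. *Rpl5* and *Rpl11* bind Mdm2 as a particle with a small ribosomal RNA and thereby stabilize p53. *Rpl5* had 1321 TPM in EpiLCs and 1056 TPM in ESCs (log2 ratio 0.32, ratio interval 1.24 to 1.27), and *Rpl11* had 2623 TPM in EpiLCs and 3012 TPM in ESCs (ratio 0.871, 0.857 to 0.885). Of the 4 genes listed for the stalk, 2 were above 0 and 2 below. The 2 below were *Rplp0*, with 2068 TPM in EpiLCs and 2076 TPM in ESCs, and *Rplp2*, with 4913 TPM in EpiLCs and 5173 TPM in ESCs. *Rps6*, the substrate of S6 kinase, had 1492 TPM in EpiLCs and 1235 TPM in ESCs. *Rps27a*, made as a fusion with ubiquitin, had 2901 TPM in EpiLCs and 2424 TPM in ESCs. *Rpl38*, mutated in the mouse Tail-short line, had 1360 TPM in EpiLCs and 1174 TPM in ESCs. All but *Rpl5* stayed within the smaller fold limit. The same held for a pair of ribosomal proteins whose symbols the member rule does not match, the ubiquitin-like fusion *Fau* (1061 TPM in EpiLCs and 1091 TPM in ESCs) and Rack1, listed as *Gnb2l1* (4941 TPM in EpiLCs and 4097 TPM in ESCs).

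Most paralogues were lower in EpiLCs. Of 9 tested, 6 were lower in EpiLCs past the smaller limit (66.7%) and 0 higher, against 26.4% and 50.3% of all genes tested, with a median log2 ratio of -0.69. The 78 genes of like length and level, which were matched to the core genes, had the same share lower (66.7%). Of those 78 genes 8.97% were higher, and their median was -0.48. With the length trend removed, the medians were -0.35 for the paralogues and -0.32 for those genes. For *Rpl3l*, which is 1 of the 6, the counting interval of the ratio (0.581 to 1.06) included 1. *Rpl10l*, an intronless copy of *Rpl10* that serves male meiosis in mice when the X chromosome is silent, had 108 TPM in EpiLCs and 347 TPM in ESCs, a ratio of 0.312 (0.296 to 0.328), and 69.5 TPM with EED226 and 92.3 TPM with DMSO. *Rpl39l*, a copy of *Rpl39* known from the mouse male germ line, had 133 TPM in EpiLCs and 328 TPM in ESCs, a ratio of 0.405 (0.383 to 0.427), and 18.7 TPM with EED226 and 25.5 TPM with DMSO. For both genes the ESC library was the highest of the 4, and the treated libraries lay below EpiLCs. None of the 100-base windows of either transcript was repeated in another gene. *Rpl10l* lies on chr12:66283379-66284401 and *Rpl39l* on chr16:10170226-10174911 of GRCm38.

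*Rps4l*, an intronless relative of X-linked *Rps4x* that GENCODE types as a transcribed processed pseudogene (chr6:148354656-148355598), had 630 TPM in EpiLCs and 1312 TPM in ESCs, a ratio of 0.480 (0.469 to 0.491), and 973 TPM with EED226 and 1061 TPM with DMSO. *Rpl7l1*, a relative of *Rpl7*, had 189.5 TPM in EpiLCs and 322 TPM in ESCs, and 260 TPM with EED226 and 283 TPM with DMSO. *Rpl36al*, an autosomal copy of X-linked *Rpl36a*, had 236 TPM in EpiLCs and 381 TPM in ESCs, and 371 TPM with EED226 and 401 TPM with DMSO. These 3 genes were lowest in EpiLCs, in contrast to *Rpl10l* and *Rpl39l*.

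The remaining paralogues differed less or were barely read. *Rpl22l1*, which *Rpl22* protein restrains in mouse cells, had 590 TPM in EpiLCs and 618 TPM in ESCs, and 573 TPM with EED226 and 489 TPM with DMSO. It was listed above its parent in all 4 libraries, at 103% of *Rpl22* in EpiLCs and 155% in ESCs, and at 144% with EED226 and 115% with DMSO. *Rps27l* had 999.6 TPM in EpiLCs and 1026 TPM in ESCs, and 896 TPM with EED226 and 918 TPM with DMSO.

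*Rpl3l*, known from striated muscle, had 69 reads in EpiLCs and 135 in ESCs, and 42 reads with EED226 and 31 with DMSO. *Rpl37rt*, a processed copy of *Rpl37*, had 107 reads in EpiLCs and 136 in ESCs, and 116 reads with EED226 and 129 with DMSO. *Rps27rt* had 0 reads in every library, which allows up to 3 reads. Its transcript holds all 255 coding bases of *Rps27* without a difference, and *Rpl37rt* holds 293 of the 294 of *Rpl37*, so that reads could not be told apart from those of the parents over these stretches. The other paralogues kept between 56.9% (*Rpl7l1*) and 87.9% (*Rpl36al*) of their parent's coding bases, with 84.8% for *Rpl10l* and 85.3% for *Rpl39l*.

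*Rpl10l*, *Rpl39l*, *Rps4l*, *Rpl7l1* and *Rpl36al* varied more over the 4 libraries than their parents, as did the thinly read *Rpl3l*. *Rpl22l1* varied less than *Rpl22*, and *Rps27l* less than the thinly read *Rps27*. As a share of its parent's TPM, *Rpl10l* was 5.69% in EpiLCs and 13.2% in ESCs, and 2.97% with EED226 and 3.84% with DMSO. *Rpl39l* was 9.28% of *Rpl39* in EpiLCs and 17.7% in ESCs, and 1.40% with EED226 and 1.73% with DMSO. *Rps4l* was 16.6% of *Rps4x* in EpiLCs and 32.5% in ESCs, and 27.5% with EED226 and 29.9% with DMSO. *Rpl39* itself had 1429 TPM in EpiLCs and 1855 TPM in ESCs, and 1334 TPM with EED226 and 1476 TPM with DMSO. *Rpl3*, *Rpl7* and *Rps4x* each differed by less than 1.1-fold between EpiLCs and ESCs, and *Rpl37* had 1395 TPM in EpiLCs and 1517 TPM in ESCs.

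**Figure D4:**
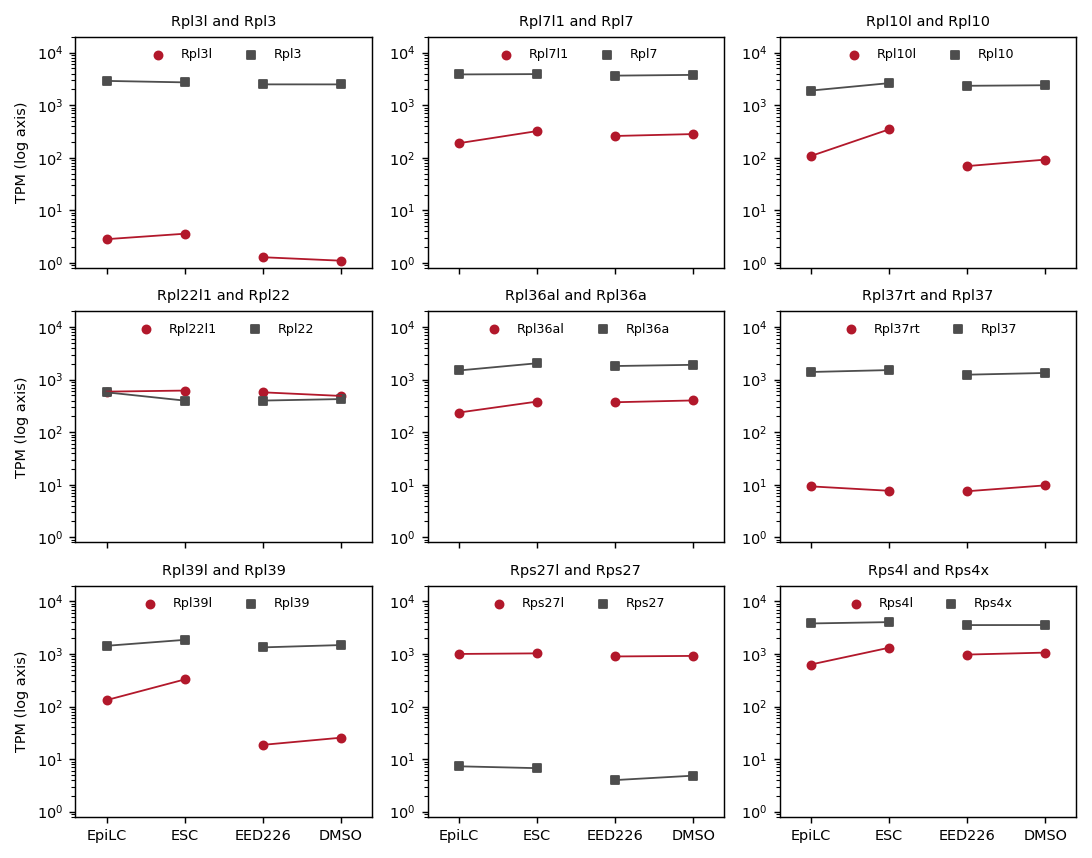
TPM (logarithmic axis) of 9 paralogue or like members (red circles) and their parents (grey squares) in EpiLCs, ESCs, EED226 and DMSO, 1 library each, with lines joining the pairs compared. *Rps27rt*, with 0 reads, is not drawn. *Rpl39l* spans 18.7 to 328 TPM while *Rpl39* spans 1334 to 1855 TPM, and *Rps27l* lies above *Rps27*, which had at most 91 reads.

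EED226 over DMSO asks whether 48 h of PRC2 inhibition moved the family. The core genes differed little in level, with a median log2 ratio of -0.06 (quartiles -0.12 and -0.02), and 73 of 76 lay within 0.25 of 0. Their summed TPM was 179073 with EED226 and 185601 with DMSO. Of 85 members tested, none was higher past the smaller limit (0%) and 4 were lower (4.71%), against 18.1% and 3.11% of 12763 genes. At 1.5-fold, no member was called in either direction, against 5.26% of genes higher and 1.02% lower. The 78 genes of like length and level had a median of -0.08, with none past the smaller limit, and the core genes' median lay 0.02 above theirs. The median stayed below 0 under every alternative run for this comparison, at -0.03 with the length trend removed and -0.15 with TMM scaling. Small and large subunit genes had medians of -0.04 and -0.06.

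The 4 lower members were *Rpl34*, *Rpl39l*, *Rpl10l* and *Rpl37rt*. *Rpl10l* had a ratio of 0.753 (0.702 to 0.809) and *Rpl39l* a ratio of 0.731 (0.626 to 0.853), on 308 reads with EED226 and 362 with DMSO. *Rpl34* had a ratio of 0.709 on 66 and 80 reads, and the interval of *Rpl37rt* (0.596 to 1.00) reached 1. Among core genes with over 1000 reads per library, the lowest ratios were those of *Rps3a1*, *Rpl35* and *Rps21*, all within the smaller limit. *Rps3a1* had 465 TPM with EED226 and 560 TPM with DMSO (ratio 0.829, 0.805 to 0.854). *Rpl35* had 936 TPM with EED226 and 1094 TPM with DMSO. Of its windows, 83.0% also occurred in a transcript of another gene. The gene matched most often was *Wdr38*, which lies opposite *Rpl35* at the same place. *Rps21* had 2372 TPM with EED226 and 2748 TPM with DMSO. *Rps27* also ranked among the 5 lowest, on 47 reads with EED226 and 49 with DMSO.

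Core ratios above 1 in EED226 over DMSO were small. Among them, *Rps14*, *Rps26* and *Rps19* had ratios of 1.05, 1.04 and 1.04. *Rpl30* was also higher, with 27 reads with EED226 and 21 with DMSO. *Rpl22l1* was the highest of all members, with a ratio of 1.17 (1.12 to 1.22), beside 0.936 for *Rpl22*. Across the 73 core genes, the log2 ratios of EpiLC over ESC and of EED226 over DMSO, which share no library, had a Pearson r of 0.14 and a Spearman rho of 0.15.

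**Figure D5:**
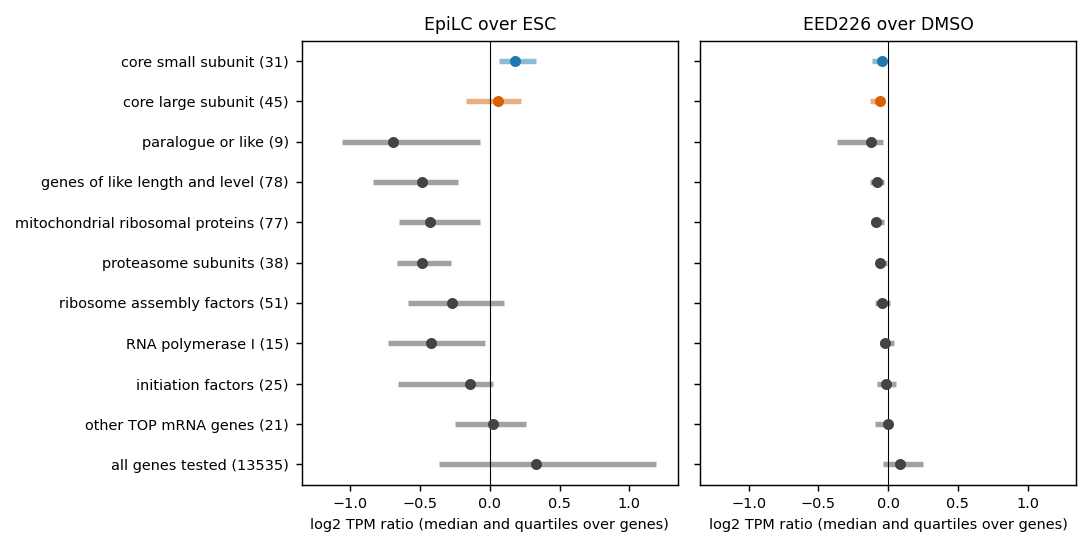
Median (point) and quartiles (bar) of the log2 TPM ratio over the genes of each group, for EpiLC over ESC (left) and EED226 over DMSO (right), with the number of genes tested on the left in parentheses. On the left the core genes (0.18 and 0.06) and the other TOP mRNA genes (0.02) lie between all genes tested (0.33) and the remaining groups, and on the right all medians lie between -0.12 and 0.08.

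DMSO over ESC compares vehicle-treated cells with the ESC library that EpiLCs were compared with, which by the methods was in other medium. The core genes had a median log2 ratio of -0.13 (quartiles -0.19 and -0.05). Their summed TPM was 185601 with DMSO and 203580 in ESCs. Of 85 members, 2 were higher with DMSO past the smaller limit (2.35%) and 10 were lower (11.8%), against 41.4% and 23.0% of 12945 genes. The 78 genes of like length and level had a median of -0.13 too, which was -0.02 over the 13 at 1000 TPM or more and 0.04 with the length window opened. The summed TPM ratio was 0.912 as deposited but 1.00 with the length trend removed, and 30 members were lower after centring. The lowest well-read core gene was *Rps15* (3492 TPM with DMSO and 4544 TPM in ESCs, ratio 0.768, 0.758 to 0.779). *Rps27* and *Rpl34* were also among the lowest, on at most 140 reads. *Rps3a1* (560 TPM with DMSO and 479 TPM in ESCs) and *Rpl27* (748 TPM with DMSO and 647 TPM in ESCs) were among the 3 highest with *Rpl30*.

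The paralogues held the widest differences between DMSO and ESC. *Rpl39l* had 362 reads with DMSO and 6211 in ESCs, a ratio of 0.0779 (0.0698 to 0.0866). *Rpl10l* had 1663 reads with DMSO and 8350 in ESCs, a ratio of 0.266 (0.252 to 0.281). *Rpl3l* had a ratio of 0.307 (0.201 to 0.456) on 31 reads with DMSO and 135 in ESCs. *Rpl22l1* had a ratio of 0.791 (0.760 to 0.822). *Rpl39l* and *Rpl10l* were thus higher in the ESC library than in both vehicle-treated ESCs and EpiLCs, while *Rpl22l1* was near its ESC level in EpiLCs. EpiLC over ESC and DMSO over ESC share the ESC library, so these low ratios are not independent of those in EpiLCs.

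Genes that make and regulate ribosomes were set beside the family in EpiLC over ESC, where 50.3% of all genes tested were higher and 26.4% lower past the smaller limit. Of 51 ribosome assembly factors, 6 were higher in EpiLCs and 22 lower past the smaller limit (median -0.27). The 4 with the highest mean level were nucleolin *Ncl* (log2 ratio 0.11), *Mybbp1a* (-0.25), the snoRNP protein *Nhp2* (-0.34) and the snoRNP protein *Nop56* (-0.24). Of 15 RNA polymerase I genes, 0 were higher and 9 lower (median -0.42), among them the subunit *Polr1c* (197 TPM in EpiLCs and 285 TPM in ESCs). The other genes named by level were *Rrn3* (-0.07), *Ubtf* (-0.32) and *Taf1d* (0.27). Of 25 initiation factors tested, 5 were higher and 11 lower (median -0.14), with *Eif4a1* at -0.58, *Eif5a* at -0.55, *Eif1* at 0.68 and *Eif1ax* at 0.53. Core ribosomal protein genes and these groups thus did not share a median, although after centring all of them, the core genes included, were below 0.

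Of 21 other TOP mRNA genes, 5 were higher and 5 lower in EpiLCs (median 0.02, and -0.14 with the length trend removed, beside core medians of 0.11 and 0.29), and their summed TPM was 40073 in EpiLCs with a ratio of 1.24. The elongation factor *Eef1a1* had 15791 TPM in EpiLCs and 11138 TPM in ESCs, and *Eef2* had 6034 TPM in EpiLCs and 3345 TPM in ESCs. *Tpt1* had 3618 TPM in EpiLCs and 2480 TPM in ESCs, and *Npm1* had 3962 TPM in EpiLCs and 4530 TPM in ESCs. Of 10 snoRNA host genes, which are also TOP genes in part, 2 were higher and 4 lower, with *Snhg1* at 0.06, *Snhg3* at -1.22, *Snhg12* at 0.16 and *Snhg5* at -0.88.

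Of the 21 mTOR, TOP and Myc regulators, 9 were higher and 6 lower in EpiLCs (42.9% and 28.6%, against 50.3% and 26.4% of all genes tested). Their median was 0.10, and it turned to -0.20 with the length trend removed. *Larp1*, which binds TOP mRNAs, had 211 TPM in EpiLCs and 105 TPM in ESCs, and 228 TPM with EED226 and 212 TPM with DMSO. *Mycn* had 73.4 TPM in EpiLCs and 77.4 TPM in ESCs, and 376 TPM with EED226 and 397 TPM with DMSO. The translation repressors *Eif4ebp1* and *Eif4ebp2* had log2 ratios of -0.28 and 0.34 in EpiLC over ESC. Of 19 genes of the p53 list, 15 were higher in EpiLCs and 1 lower past the smaller limit (median 1.38). The lower one was *Trp53* itself (402 TPM in EpiLCs and 741 TPM in ESCs), and *Bax*, *Ccng1* and *Mdm2* had log2 ratios of -0.23, 1.74 and 1.74. *Mdm2*, the ligase that *Rpl5* and *Rpl11* bind, had 339 TPM in EpiLCs and 101 TPM in ESCs. Any link between these levels and the ribosomal protein genes was not tested.

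In EED226 over DMSO the same lists held few differences. None of the 51 assembly factors, 15 RNA polymerase I genes, 25 initiation factors, 21 other TOP genes or 10 snoRNA host genes was higher or lower past the smaller limit, and their medians lay between -0.05 and 0.05. Of the 21 mTOR, TOP and Myc regulators, 1 was higher and 0 lower, and of the 19 genes of the p53 list, 2 were higher and 0 lower. Of all genes tested, 18.1% were higher and 3.11% lower. In DMSO over ESC, 25 of 51 assembly factors were higher and 0 lower (median 0.32), against 41.4% and 23.0% of all genes tested, and 7 of 10 snoRNA host genes were lower with 0 higher (median -0.76). The mitochondrial ribosomal protein genes highest in level (*Mrpl42*, *Mrpl12*, *Mrpl18* and *Mrpl20*) had log2 ratios of EpiLC over ESC between -1.02 and -0.33, and the proteasome genes highest in level (*Psmb6*, *Psmb4*, *Psmb7* and *Psma2*) had ratios between -1.07 and -0.27.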

How the data were processed

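RNA of 4 cultures of the R1 ESC line (EpiLC, ESC, EED226, DMSO; 1 library each) was sequenced from a stranded mRNA kit as single reads. Tools in the submitters' processing notes are featureCounts 1.6.2, STAR 2.6.0a, Bowtie2 2.2.4 and bcl2fastq 2.20, with build mm10. The strand and multi-mapping settings are not given in the sources used here. The authors deposited 1 table with a read count, reads per base and TPM for each gene and library, and each of its library columns was matched to a sample. It lists 24421 entries, of which 2 that share a symbol were left out.

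The deposited TPM and the deposited count were used as given. Genes needed at least 1 TPM in either library of a comparison, and log2 ratios used a pseudocount of 0.1 TPM. Ratios carry exact 95% Clopper-Pearson intervals of how a gene's reads divided between libraries. No p-value was computed, since a condition has 1 library. Calls used 1.25-fold, with 2-fold (EpiLC over ESC) and 1.5-fold (EED226 over DMSO) as the larger change. The length trend was the running median of 501 genes that are no members, narrowed at the ends. TMM factors came from edgeR.

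The named genes were all paralogues and their parents, and the core genes with the 5 highest and lowest ratios (3 for DMSO over ESC). Core genes with the 4 highest and lowest mean TPM were also named, as were stalk proteins and members with functions outside the ribosome. From each other list, the 4 genes of highest level were named. Some genes that this rule names are not reported here. The members and lists were chosen with earlier results of these data known. Gene positions, overlaps and transcript windows of 100 bases were taken from GENCODE (GRCm38, the assembly behind mm10). Start windows came from RefSeq on GRCm38.p6. The calculations were tested on simulated data and used Python 3.11.15, pandas 2.3.3, scipy 1.17.1, Biopython 1.88, matplotlib 3.10.9 and edgeR 4.0.16.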

Additional observations from a re-analysis of the deposited data

How the results depend on the processing

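Each condition had 1 library, and no replicate was left out. No paired analysis was possible because each condition has 1 library. Core genes were limited to those with under 10% of repeated windows using transcripts in place of a genome, and this, the limits on mean TPM, the comparison genes without TOP and initiation factor genes and the windows opened singly were chosen after seeing the data.

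For EpiLC over ESC, the core median of 0.11 became 0.11 with a pseudocount of 1 TPM, -0.12 after centring on the median gene, -0.24 with TMM, 0.14 with TPM rescaled over non-members, 0.29 with the length trend removed, 0.19 over the 11 core genes with few repeated windows and 0.12 over the 73 with at least 10 TPM. The ratio of summed TPM, 1.08, became 0.917 after centring and 0.844 with TMM. The 17 higher members became 36 at 1.1-fold, 1 at 1.5-fold, 1 after centring, 36 with the length trend removed and 0 with TMM. The 19 lower ones became 8 at 1.5-fold, 10 with the length trend removed and 36 with TMM. The sign follows the scaling, since centring and TMM shift every gene by 1 constant.

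For EED226 over DMSO, the core median of -0.06 became -0.14 after centring, -0.15 with TMM, -0.072 rescaled and -0.034 with the length trend removed. The 0 higher members became 1 with no filter and 3 at 1.1-fold, and the 4 lower ones became 16 at 1.1-fold and 0 at 1.5-fold.

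For DMSO over ESC, the core median of -0.13 became -0.28 after centring, -0.34 with TMM, -0.16 rescaled, -0.015 with the length trend removed and -0.19 over the genes with few repeated windows. The ratio of summed TPM, 0.912, became 1.002 with the length trend removed. The 2 higher members became 1 at 5 TPM or more, 6 at 1.1-fold, 5 with the length trend removed, and 0 at 1.5-fold, with the interval required to exclude 1, after centring and with TMM. The 10 lower ones became 42 at 1.1-fold, 3 at 1.5-fold, 30 after centring, 5 with the length trend removed and 49 with TMM.

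The median of the genes of like length and level was -0.48 in EpiLC over ESC, -0.48 with the level taken from the other 2 libraries and -0.53 without TOP and initiation factor genes. Those 2 libraries (EED226 and DMSO) were also of ESCs, so that setting still lets in genes high in ESCs more readily. In DMSO over ESC the median was -0.13, and -0.11 with the level from the other libraries. In EpiLC over ESC, EED226 over DMSO and DMSO over ESC it was 0.22, 0.062 and 0.12 with both windows over the full range, -0.092, -0.021 and -0.091 with only the level window opened, -0.34, -0.052 and 0.039 with only the length window opened, and -0.79, -0.052 and -0.021 over the 13 genes at 1000 TPM or more. It was above 0 in all 3 comparisons with both windows opened, and in DMSO over ESC also with the length window opened. All other settings tried for these medians and counts kept the direction and stayed within the counting interval, or within 1.5 times the count, and the ratio of summed TPM moved past its counting interval in 12 further cases without turning.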
